A study of Homo sapiens with 8 samples.

Results

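Collagens are the rod-like proteins of the extracellular matrix, and each chain is encoded by its own gene. The genes described here are all protein-coding genes whose symbol is COL, a number, A and a number. The rule found 44 of the 58592 genes in the joined tables, and 41 of the 44 had at least 1 count. The level of each was read in normal HEK293T cells and in HEK293T cells overexpressing KCNQ3.

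Collagen chains wind into a triple helix, and which chains a cell makes decides which trimers it can assemble. Fibrillar collagens form the cables of skin, bone and cartilage, type IV collagen forms the sheet-like network of basement membranes, and type VI collagen forms beaded filaments around cells. In the endoplasmic reticulum the chains are hydroxylated, glycosylated and folded by dedicated enzymes before they are exported, trimmed and crosslinked.

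HEK293T cells derive from human embryonic kidney and express the large T antigen of SV40. The control group was 4 libraries of normal cells, and the other group was 4 libraries of cells transfected with a construct for a tagged human KCNQ3 protein, a subunit of neuronal potassium channels. Cells were grown in serum-supplemented medium and collected 48 hours after transfection. The sources used here do not say whether control cells were given reagent or empty vector, so the introduced gene and the transfection itself cannot be told apart. Nothing states that the 4 libraries of a group came from separately started cultures, and p-values then measure only the spread between these libraries, which may be technical.

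Total estimated counts ran from 24020097 to 30734915 per library. KCNQ3 had 0 to 5 counts in each control library and 15283 to 19709 in each overexpression library, as labelled. All 10 genes of a list typical of HEK293T passed the low-count filter. Of lists for other cells, the fibroblast genes DCN, THY1, FAP and POSTN, the endothelial genes CDH5 and TIE1, the chondrocyte genes HAPLN1 and CNMD, and the blood genes PTPRC, CD3E and HBB were at 0 in all 8 libraries. Other genes of these lists did pass the filter, 3 of 10 for fibroblasts, 2 of 8 for endothelium, 5 of 7 for chondrocytes and 1 of 6 for blood. The fibroblast list summed to 43.4 to 51.9 TPM in controls and 40.6 to 48.8 TPM with KCNQ3.

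The type IV genes lie in the genome as head-to-head pairs that share the DNA between their starts, which is shown here because both genes of each pair are followed below. The stretch between the RefSeq starts of COL4A1 (minus strand) and COL4A2 (plus strand) is 126 bases, at chr13:110307158-110307283 of GRCh38.p14. The starts of COL4A4 and COL4A3 lie 418 bases apart, and those of COL4A6 and COL4A5 379 bases apart. For those pairs the 250 bases before the COL4A3 start (chr2:227164374-227164623, plus strand) and before the COL4A5 start (chrX:108439588-108439837, plus strand) are given. COL4A6 has another RefSeq start at chrX:108438422, farther from COL4A5, and the nearer start was used here. Capitals mark GGGCGG (the GC box), CCAAT and TATAAA, searched on both strands.
COL4A1 and COL4A2, between the starts: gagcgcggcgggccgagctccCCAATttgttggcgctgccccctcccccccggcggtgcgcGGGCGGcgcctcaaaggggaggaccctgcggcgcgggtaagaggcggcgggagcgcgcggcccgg
COL4A3, before the start: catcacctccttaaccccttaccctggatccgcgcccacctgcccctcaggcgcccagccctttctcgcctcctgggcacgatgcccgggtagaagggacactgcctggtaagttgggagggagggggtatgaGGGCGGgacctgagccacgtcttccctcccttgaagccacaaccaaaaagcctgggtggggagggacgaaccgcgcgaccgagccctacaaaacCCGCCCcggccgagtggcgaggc
COL4A5, before the start: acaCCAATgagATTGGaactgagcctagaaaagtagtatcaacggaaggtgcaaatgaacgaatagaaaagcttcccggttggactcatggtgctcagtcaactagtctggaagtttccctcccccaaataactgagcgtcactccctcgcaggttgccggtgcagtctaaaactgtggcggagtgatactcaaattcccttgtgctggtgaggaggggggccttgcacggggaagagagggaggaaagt

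The COL4A1 and COL4A2 stretch was 80.2% G or C and held 20 CG steps, the COL4A4 and COL4A3 stretch 70.1% and 32, and the COL4A6 and COL4A5 stretch 48.5% and 12. The first held 1 GC box and 1 CCAAT, the second 2 GC boxes, and CCAAT stood 3 times in the third. None of the 3 held TATAAA. RefSeq promoter windows run from 250 bases before to 50 after a start, and only the 250 bases before it were searched. Of all 35116 windows, 42.6% held a GC box there, 32.0% a CCAAT and 10.7% a TATAAA. RefSeq windows were matched for 32 of the 44 collagen genes, 44 windows in all, of which 54.5% held a GC box, 27.3% a CCAAT and 18.2% a TATAAA.

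In 3 genes an annotated exon is in 1 and not the other of the transcripts described below, which also differ at other exons, and its bases are shown in capitals between 20 flanking bases of the spliced transcript, from GENCODE (GRCh38). For COL2A1 it is exon 2 of 54, 207 bases at chr12:47999919-48000125 on the minus strand. For COL4A5 they are exons 42 and 43 of 53, of 9 bases each, at chrX:108670228-108670236 and chrX:108674745-108674753 on the plus strand. For COL6A5 it is exon 32 of 42, 12 bases at chr3:130429573-130429584 on the plus strand.
COL2A1 alternative exon: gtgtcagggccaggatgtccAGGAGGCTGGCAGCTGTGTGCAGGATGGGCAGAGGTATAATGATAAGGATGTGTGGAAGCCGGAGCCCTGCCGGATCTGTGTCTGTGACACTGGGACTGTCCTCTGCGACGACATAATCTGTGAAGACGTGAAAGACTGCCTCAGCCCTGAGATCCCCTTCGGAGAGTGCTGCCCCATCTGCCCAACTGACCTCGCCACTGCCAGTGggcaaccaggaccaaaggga
COL4A5 alternative exons: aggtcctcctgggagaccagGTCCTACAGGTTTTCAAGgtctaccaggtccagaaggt
COL6A5 alternative exon: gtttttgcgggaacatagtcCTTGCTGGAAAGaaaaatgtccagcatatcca

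The collagen RNA of the cells was led by type VI and type IV genes, and its sum was close in both groups. Levels between genes are compared in TPM, which is scaled by length and sums to 1000000 per library. Summed over the 44 genes the level was 254 ± 21.3 TPM in controls and 247 ± 17.2 TPM with KCNQ3 (SD, n = 4 each). Of that sum over all libraries, type VI genes held 49.3%, type IV genes 23.6%, fibrillar genes 14.7%, and the genes of fibril-associated collagens, which sit on fibril surfaces, 5.25%. COL9A3 alone held 3.12%, but most of its counts lay outside protein-coding transcripts, as given below. A mean of at least 1 TPM was reached by 19 genes, at least 5 TPM by 11 and at least 10 TPM by 6.

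**Figure D1:**
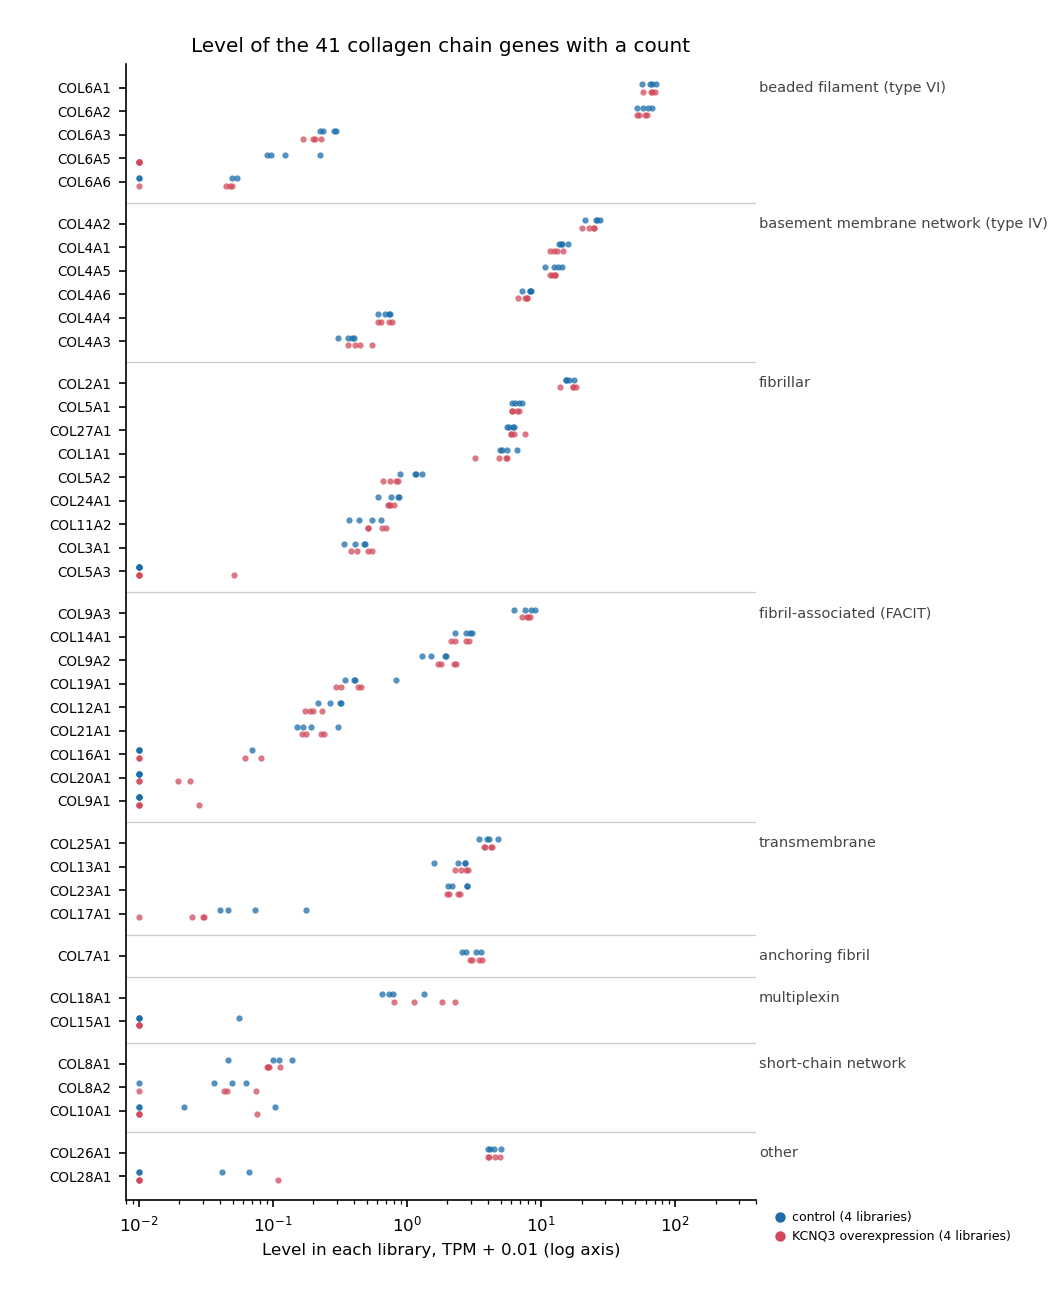
Level of each collagen chain gene with a count in each library, in TPM + 0.01 on a log axis, grouped by the kind of collagen and ordered by mean level. COL6A1 and COL6A2 lie between 51.5 and 71.4 TPM in all 8 libraries, and the 2 groups of points overlap for nearly every gene.

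Of the 44 genes, 30 passed the low-count filter and were tested, of which 29 had a count in every library. By the quasi-likelihood (QL) test of edgeR, adjusted over all genes after Benjamini and Hochberg, 1 of the 30 changed at an adjusted p under 0.05: COL6A5, which was lower with KCNQ3. Over all 19280 genes tested, 0.301% were called, 0.109% higher and 0.192% lower. DESeq2 called 9.9% of the 13655 genes with an adjusted p there (4.41% higher and 5.49% lower) and none of the 18 collagen genes that had one. COL6A5 was not among these 18, as DESeq2 gave it no adjusted p. By limma-voom 0.363% of all genes were called, COL6A5 among them. In bulk RNA, fewer cells that express a gene and less RNA per cell cannot be told apart.

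At an unadjusted p under 0.05, 5 of the 30 differed (16.7%), against 19.4% of all genes tested. COL7A1, COL9A2 and COL18A1 were the 3 on the higher side, and COL6A5 and COL12A1 the 2 on the lower side. The libraries of the groups did not overlap in scaled CPM (counts per 1000000, scaled with TMM factors) for 2 of the 30 (6.67%), COL6A3 and COL6A5, against 11.6% of all genes. COL6A5 passed the filter through its control libraries alone, so its groups could not overlap. The log2 fold change was above 0 for 18 of the 30 (60.0%), against 52.6% of all genes, and its median was 0.02 for the collagen genes and 0.01 for all genes. These shares lay near or below those of all genes apart from the share above 0. With no scaling factor, 15 of the 30 collagen genes and 9132 of all 19280 genes were above 0.

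**Figure D2:**
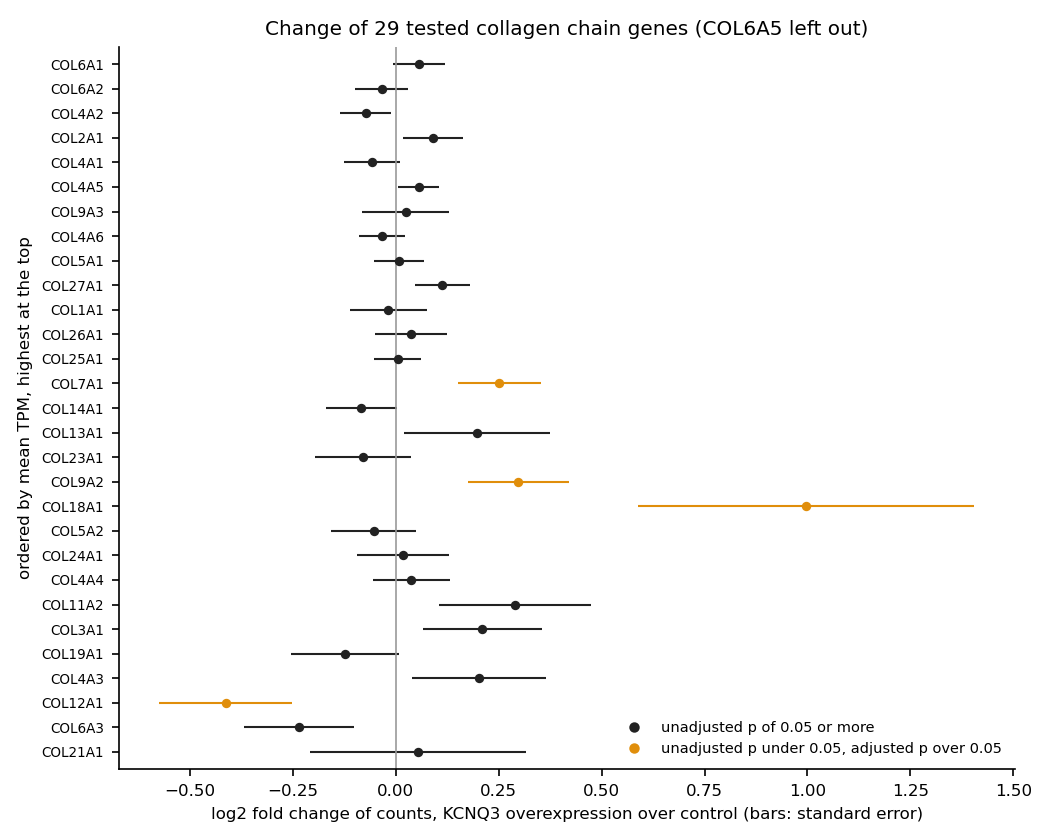
Log2 fold change of counts with KCNQ3 for the 29 tested collagen genes with a count in every library, with the standard error as bars, ordered by mean TPM from the top. The 15 genes at 5 CPM or more in a group sit between -0.08 and 0.25, and the wide bars belong to less abundant genes such as COL18A1.

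Type VI collagen is built from a COL6A1, a COL6A2 and 1 further chain, which COL6A3 or one of the later copies COL6A5 and COL6A6 provides. COL6A1 was the most abundant collagen gene, at 71.4, 64.4, 66.5 and 56.5 TPM in control replicates 1 to 4 and 70.9, 57.5, 65.8 and 66.5 TPM in overexpression replicates 1 to 4. COL6A2 was at 67.1, 57.8, 62.9 and 52.2 TPM in controls and 61.3, 51.5, 59.4 and 53.9 TPM with KCNQ3. The ranges of both genes overlapped between the groups and with each other.

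The log2 fold change of counts was 0.06 ± 0.06 (SE) for COL6A1 and -0.03 ± 0.06 for COL6A2, with adjusted p of 0.677 and 0.826 by edgeR's QL test. The ratio of COL6A1 to COL6A2 in TPM was 1.08 ± 0.0256 in controls and 1.15 ± 0.0568 with KCNQ3 (SD, n = 4), with overlapping groups. It ran from 1.06 to 1.23 over the 8 libraries. Together these genes held 49.2% of the collagen TPM, and the genes for the further chain were far lower. COL6A2 stood at 242 ± 39.8 times COL6A3 in TPM in controls and 300 ± 24.8 times with KCNQ3 (SD, n = 4).

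COL6A3 was at 0.225, 0.277, 0.286 and 0.216 TPM in controls and 0.218, 0.159, 0.187 and 0.196 TPM with KCNQ3. In scaled CPM every overexpression library was below every control library, although the nearest values were 1.34 and 1.33. Its log2 fold change was -0.23 ± 0.13 (SE, adjusted p = 0.467 by edgeR's QL test). COL6A6 had 0, 7, 7 and 0 counts in controls and 6, 6, 0 and 6 with KCNQ3, too few to test.

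COL6A5, the collagen gene that passed the test, had 36, 13, 16 and 12 counts in control replicates 1 to 4 and 0 in each of the 4 overexpression libraries. With no count in the overexpression group, COL6A5 passed the low-count filter through its control libraries alone. That every control library was above every overexpression library follows from this and does not add to the call, and a fall was the only change it could show. The gene lies at chr3:130345516-130484844 on the plus strand. Its level in controls was 0.123 ± 0.0616 TPM (SD, n = 4), under that of COL6A3.

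The floor of 3 counts over the overexpression group puts COL6A5 at least 24.6-fold lower there, and this bound covers counting error only. The adjusted p was 0.034 by edgeR's QL test. At the control level, 17.5 to 19.4 counts would fall in each overexpression library. COL6A5 was the 1 gene of all 58592 with at least 12 counts in every control library and none in any overexpression library, and 1 gene, the pseudogene SUGT1P1, showed the opposite pattern. The bound of 12 is the lowest control count of COL6A5 itself, so its place in this count was fixed by that choice. SUGT1P1 lies outside the rule for named genes and was picked with its values known.

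All 77 control counts of COL6A5 were assigned to the transcript ENST00000312481, of 9226 bases and 42 exons, which GENCODE annotates as a target of nonsense-mediated decay. It shares 40 exons with the protein-coding ENST00000265379, which was listed at 0, and the 12 bases printed above are an exon to which no exon of the latter, which has 43, corresponds. Other exons of the pair differ too. With protein-coding transcripts alone, COL6A5 therefore had no counts and could not be tested. The pseudogenes COL6A4P1 and COL6A4P2, near relatives in sequence, had 39 to 63 and 10 to 24 counts in controls and 37 to 55 and 11 to 24 with KCNQ3.

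The COL6A5 call was lost in 9 of the 17 alternatives that gave an adjusted p. By edgeR's QL test the adjusted p was 0.0616 without control replicate 2, 0.133 without control replicate 3, and 0.0748, 0.0544 and 0.0732 without overexpression replicate 2, 3 or 4. It was 0.0721 without robust estimation, 0.0508 with the replicate number as a block, 0.266 and 0.141 by limma on log2(TPM + 1) and log2(TPM + 0.1), and 0.000346 by limma-voom, the range over the alternatives being 0.000346 to 0.266.

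**Figure D3:**
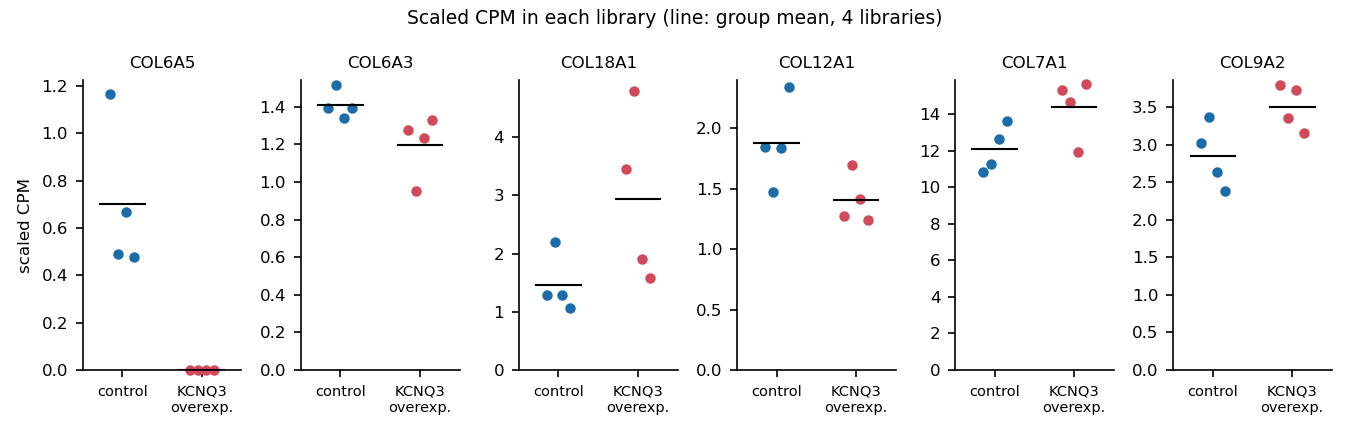
Scaled CPM in each library for 6 collagen genes, those with an unadjusted p under 0.05 or with groups that did not overlap, with each group's mean as a line. COL6A5 is at 0 in the 4 overexpression libraries, the COL6A3 groups are separated by a narrow gap, and the points of COL18A1, COL12A1, COL7A1 and COL9A2 overlap between groups.

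Type IV collagen has 6 genes. The COL4A1 and COL4A2 chains make the network of nearly all basement membranes, while the COL4A3, COL4A4 and COL4A5 chains make that of the glomerulus and COL4A6 joins COL4A5 in others. COL4A1 was at 15.8, 14.1, 14.3 and 13.5 TPM in controls and 13.1, 11.7, 12.4 and 14.5 TPM with KCNQ3. COL4A2 was at 27.5, 25.8, 26.0 and 21.2 TPM in controls and 24.8, 20.1, 24.6 and 22.8 TPM with KCNQ3. Both overlapped between groups, and COL4A2 lay above COL4A1 in every library.

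Their log2 fold changes in counts were -0.06 ± 0.07 and -0.07 ± 0.06 (SE), with adjusted p of 0.7 and 0.566 by edgeR's QL test. The ratio of COL4A2 to COL4A1 was 1.74 ± 0.118 in controls and 1.79 ± 0.181 with KCNQ3 (SD, n = 4). The ratio thus moved by less than its spread between libraries.

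COL4A5 was at 13.3, 14.3, 12.5 and 10.7 TPM in controls and 11.6, 12.7, 12.1 and 12.6 TPM with KCNQ3. COL4A6 was at 8.41, 8.18, 8.31 and 7.23 TPM in controls and 7.85, 6.65, 7.58 and 7.87 TPM with KCNQ3. Neither gene separated the groups. The log2 fold changes in counts were 0.06 ± 0.05 and -0.03 ± 0.06 (SE), with adjusted p of 0.583 and 0.801 by edgeR's QL test, and the sign for COL4A5 turned on the TPM scales (-0.04 on both).

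The third pair was low. COL4A3 stood at 0.356 ± 0.0431 TPM in controls and 0.434 ± 0.0797 TPM with KCNQ3, and COL4A4 at 0.683 ± 0.0622 and 0.678 ± 0.0773 TPM (SD, n = 4). Over the 8 libraries COL4A4 exceeded COL4A3 by 1.17 to 2.46 times, COL4A5 exceeded COL4A6 by 1.48 to 1.91 times and COL4A2 exceeded COL4A1 by 1.57 to 1.98 times. The order within each pair thus held in all 8 libraries, while the pairs differed widely in level.

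The authors' estimates divided COL4A5 between transcripts in an all-or-none way. ENST00000328300, of 53 exons with the 18 bases printed above, had 1285, 974, 862 and 0 counts in controls and 1, 458, 1041 and 1050 with KCNQ3. ENST00000361603, of 51 exons without them, had 0, 0, 0 and 956 counts in controls and 1125, 398, 0 and 0 with KCNQ3. In 7 of 8 libraries 1 of these forms had at most 1 count, and which form it was differed within each group.

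**Figure D4:**
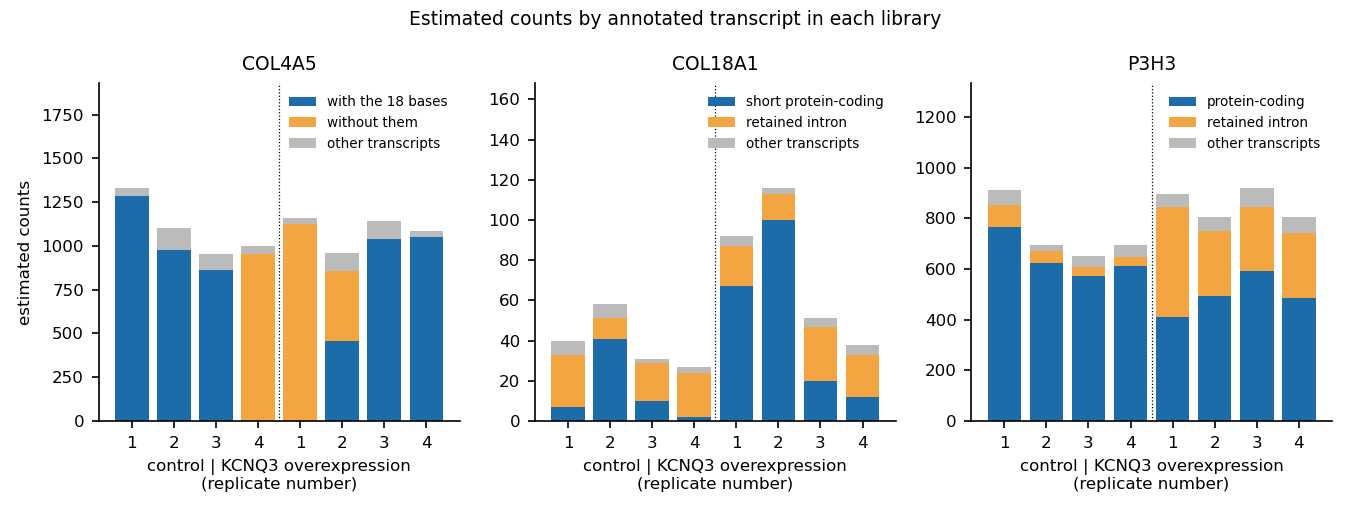
Estimated counts by annotated transcript in each library for COL4A5, COL18A1 and P3H3, a prolyl 3-hydroxylase family gene described below. COL4A5 is assigned to the form without the 18 bases in control replicate 4 and overexpression replicate 1, and the retained-intron transcript of P3H3 has 34 to 87 counts in controls and 253 to 434 with KCNQ3.

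Among fibrillar collagens, COL2A1, which encodes the chain of cartilage type II collagen, was the most abundant. It was at 16.2, 17.6, 15.4 and 15.2 TPM in controls and 17.2, 13.9, 18.2 and 17.3 TPM with KCNQ3, with overlapping groups. Counts differed by 0.09 ± 0.07 (SE) on the log2 scale (adjusted p = 0.543 by edgeR's QL test). ENST00000380518, the transcript that includes exon 2, held 97.2% of its counts. ENST00000337299, which lacks exon 2, had 78 counts in overexpression replicate 1 and none elsewhere. Exon 2 encodes a cysteine-rich domain that mature chondrocytes leave out.

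COL5A1, COL27A1 and COL1A1 followed. COL5A1, a chain that helps to nucleate fibrils and limits their width, was at 7.15, 6.40, 6.83 and 6.05 TPM in controls and 6.59, 6.05, 6.79 and 6.10 TPM with KCNQ3. COL27A1 was at 6.17, 5.78, 6.21 and 5.55 TPM in controls and 7.50, 6.26, 5.91 and 5.89 TPM with KCNQ3. COL1A1, the main chain of type I collagen, was at 5.58, 6.62, 5.08 and 4.93 TPM in controls and 5.49, 3.19, 5.51 and 4.85 TPM with KCNQ3. All 3 genes overlapped between groups, with log2 fold changes in counts of 0.01 ± 0.06, 0.11 ± 0.07 and -0.02 ± 0.09 (SE).

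Their adjusted p were 0.963, 0.388 and 0.941 by edgeR's QL test. COL1A2, which encodes the partner chain of COL1A1 in type I collagen, had no count in any of the 8 libraries. A count of 0 over all libraries allows up to 0.0144 CPM (3 counts, counting error only). COL11A1 was also at 0 in every library while COL11A2, another chain of type XI collagen, was at 0.489 ± 0.121 TPM in controls and 0.583 ± 0.0972 TPM with KCNQ3 (SD, n = 4). COL3A1 was at 0.417 ± 0.0682 and 0.455 ± 0.0769 TPM.

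COL5A2, the partner of COL5A1, had groups that overlapped in counts but not in TPM. In TPM it was at 1.16, 1.27, 1.14 and 0.872 in controls and 0.730, 0.651, 0.819 and 0.841 with KCNQ3, with every overexpression library below every control library. The ratio of COL5A1 to COL5A2 in TPM was accordingly 6.03 ± 0.792 in controls and 8.47 ± 0.919 with KCNQ3 (SD, n = 4). In counts COL5A2 had 107, 95, 80 and 84 in controls and 80, 71, 96 and 90 with KCNQ3, and the log2 fold change was -0.05 ± 0.10 (SE, adjusted p = 0.83 by edgeR's QL test). A transcript of 856 bases, ENST00000649966, had 6, 7, 5 and 2 counts in controls and 0 with KCNQ3. A short transcript adds more TPM per count, and the part of this one in the TPM difference was not tested. COL1A1 also read lower in TPM than in counts, at -0.20 on log2(TPM + 1) and -0.24 on log2(TPM + 0.1), with overlapping groups.

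Fibril-associated collagens sit on the surface of fibrils. COL14A1 was at 2.94, 3.05, 2.73 and 2.28 TPM in controls and 2.74, 2.13, 2.86 and 2.28 TPM with KCNQ3, and its log2 fold change was -0.08 ± 0.09 (SE, adjusted p = 0.65 by edgeR's QL test). The groups overlapped. COL12A1 had 57, 39, 44 and 59 counts in controls and 34, 41, 38 and 30 with KCNQ3. Its log2 fold change was -0.41 ± 0.16 (SE, unadjusted p 0.0272, adjusted p 0.201 by edgeR's QL test), and overexpression replicate 2 lay within the control range.

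Type IX collagen is assembled from COL9A1, COL9A2 and COL9A3 chains. COL9A2 had 93, 89, 63 and 60 counts in controls and 101, 81, 100 and 76 with KCNQ3, with a log2 fold change of 0.30 ± 0.12 (SE, unadjusted p 0.0346, adjusted p 0.219 by edgeR's QL test). The groups overlapped. COL9A3 was listed at 7.79 ± 1.19 TPM in controls and 7.82 ± 0.444 TPM with KCNQ3 (SD, n = 4), but 3.71% of its counts were in protein-coding transcripts and 60.0% in transcripts that overlap exons of TCFL5. COL9A1 had 2 counts, both in overexpression replicate 4.

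COL7A1 encodes the anchoring fibrils that tie basement membranes to the tissue below. It had 334, 298, 302 and 343 counts in controls and 408, 355, 320 and 377 with KCNQ3. In scaled CPM overexpression replicate 3, at 11.9, lay inside the control range of 10.8 to 13.6, and the other 3 overexpression libraries lay above it. On the log2 scale the difference was 0.25 ± 0.10 (SE, unadjusted p 0.0296, adjusted p 0.206 by edgeR's QL test).

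COL18A1 belongs to the multiplexins, basement membrane collagens whose end is released as endostatin. It had 40, 58, 31 and 27 counts in controls and 92, 116, 51 and 38 with KCNQ3. In scaled CPM control replicate 2, at 2.20, exceeded overexpression replicates 3 and 4, the lower of which was at 1.58. A log2 fold change of 1.00 ± 0.41 (SE) gave an unadjusted p of 0.044 and, by edgeR's QL test, an adjusted p of 0.242.

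Every COL18A1 transcript with a count overlaps exons of SLC19A1, a folate carrier gene with 1176 to 1627 counts per library. The transcript ENST00000342220 had 7, 41, 10 and 2 counts in controls and 67, 100, 20 and 12 with KCNQ3, while the retained-intron ENST00000473212 had 26, 10, 19 and 22 in controls and 20, 13, 27 and 21 with KCNQ3. The 2 transcripts thus differed in pattern. SLC19A1 itself had a log2 fold change of 0.15 (unadjusted p 0.0086, adjusted p 0.132 by edgeR's QL test), and its part in the COL18A1 counts was not tested.

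Of the transmembrane collagens, which are anchored in the plasma membrane, COL25A1 was at 4.06, 4.74, 3.94 and 3.41 TPM in controls and 4.28, 3.76, 4.18 and 3.78 TPM with KCNQ3. COL13A1 was at 1.57, 2.69, 2.69 and 2.38 TPM in controls and 2.50, 2.25, 2.75 and 2.83 TPM with KCNQ3. Control replicate 1 of COL13A1 was below all others and the groups otherwise overlapped. Log2 fold changes were 0.00 ± 0.06 and 0.20 ± 0.18 (SE), with adjusted p of 0.981 and 0.594 by edgeR's QL test. COL23A1 was at 2.43 ± 0.403 and 2.22 ± 0.236 TPM (SD, n = 4), and COL17A1, of the hemidesmosomes of skin, had at most 5 counts in a library.

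COL26A1 was at 4.47, 4.11, 5.01 and 4.02 TPM in controls and 4.49, 4.02, 4.09 and 4.91 TPM with KCNQ3, with overlapping groups and a log2 fold change of 0.04 ± 0.09 (SE, adjusted p = 0.861 by edgeR's QL test). The tested genes not given in full, COL3A1, COL4A3, COL4A4, COL11A2, COL19A1, COL21A1, COL23A1, COL24A1 and COL9A3, had log2 fold changes from -0.12 for COL19A1 to 0.29 for COL11A2 and adjusted p from 0.424 for COL11A2 to 0.965 for COL24A1 by edgeR's QL test. The 11 genes with a count that were not tested had at most 11 counts in a library and 2 to 69 over all 8. They were COL5A3, COL6A6, COL8A1, COL8A2, COL9A1, COL10A1, COL15A1, COL16A1, COL17A1, COL20A1 and COL28A1. With COL1A2 and COL11A1, COL22A1 was the third gene at 0 in all libraries.

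Use of transcripts within a gene was tested for the 12 collagen genes with more than 1 transcript past the filter, with edgeR's diffSpliceDGE and the Simes method. None was called and none had an unadjusted p under 0.05, against 0.383% called and 3.47% at an unadjusted p under 0.05 among 9395 genes. The smallest p were 0.115 for COL27A1, 0.415 for COL18A1 and 0.598 for COL4A1, and that of COL4A5 was 0.997. Without overexpression replicate 3 the test called 1 of them, COL25A1, at an adjusted p of 0.0449.

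The genes that act on collagen were read from the same test in 7 lists. The list of modification and folding genes, whose products hydroxylate, glycosylate and chaperone chains in the endoplasmic reticulum, had all 19 members tested. At an unadjusted p under 0.05, 9 were higher and none lower, against 9.92% higher and 9.46% lower of all genes. P3H3 alone was called by edgeR's QL test, 17 of the 19 had a log2 fold change above 0, and the median was 0.12. DESeq2 called 6 of the 17 with an adjusted p, all higher, against 4.41% higher of all genes, and limma-voom called P3H3 only.

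Among the 9, FKBP10, a peptidyl-prolyl isomerase for collagen, had 9007, 8026, 7361 and 7864 counts in controls and 8813, 8338, 9660 and 8849 with KCNQ3, with a log2 fold change of 0.21 ± 0.04 (SE, adjusted p = 0.0658 by edgeR's QL test). PLOD1, a lysyl hydroxylase, was at 0.19 ± 0.05 (adjusted p = 0.0887 by the same test) and PPIB, a chaperone of the triple helix, at 0.19 ± 0.06 (adjusted p = 0.139). In scaled CPM the groups did not overlap for FKBP10 and PLOD1 and did for PPIB. Over the list they did not overlap for 5 of the 19 genes, against 11.6% of all genes tested. FKBP10, PLOD1 and PPIB lie outside the rule for named genes and were picked with their values known. With no scaling factor the list's median was 0.10 with 17 above 0, and with protein-coding transcripts alone 0.11 with 16 of 18.

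P3H3, a member of the prolyl 3-hydroxylase family, had 912, 696, 651 and 697 counts in controls and 897, 806, 921 and 804 with KCNQ3. In scaled CPM it was 27.7 ± 1.37 in controls and 33.7 ± 0.479 with KCNQ3 (SD, n = 4), with no overlap. Its log2 fold change was 0.28 ± 0.05 (SE, adjusted p = 0.0382 by edgeR's QL test). The protein-coding ENST00000290510 had 768, 625, 574 and 614 counts in controls and 410, 492, 594 and 486 with KCNQ3, and the retained-intron ENST00000612048 had 87, 45, 35 and 34 and 434, 257, 253 and 255. The gene's sum was higher while its protein-coding transcript was not.

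The retained-intron transcript held 6.56 ± 2.09% of P3H3 counts in controls and 34.9 ± 9.24% with KCNQ3 (SD, n = 4), yet the usage test of P3H3 gave an unadjusted p of 0.08. With protein-coding transcripts alone the log2 fold change of P3H3 was -0.30 (adjusted p = 0.221 by edgeR's QL test). The call was also lost without control replicate 2 or 3 (adjusted p 0.105 and 0.143) and without overexpression replicate 2, 3 or 4 (0.129, 0.097 and 0.126). It did not hold with no scaling factor (0.0585), no low-count filter (0.062), no robust estimation (0.0539), a replicate block (0.054) or on the TPM scales (0.229 and 0.228). In all it was lost in 12 of 20 alternatives, over which the adjusted p ranged from 8.2e-05 to 0.229.

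In the list of export and processing genes, 16 of 19 were tested, none was called, 2 were higher at an unadjusted p under 0.05 and the median was 0.01, turning to -0.01 with no scaling factor. SEC23A, of the vesicle coat that carries procollagen, had a log2 fold change of 0.02 ± 0.04 (SE), and KLHL12, an adaptor for the enlargement of that coat, 0.01 ± 0.05. In the crosslinking and assembly list 11 of 15 were tested, none was called, 1 was higher and 2 lower at an unadjusted p under 0.05, and the median was -0.04. Groups did not overlap in scaled CPM for 1 of the 16 export and processing genes and 2 of these 11, against 11.6% of all genes tested. FBLN1 and PXDN, a matrix glycoprotein and the peroxidase that crosslinks type IV collagen, were at -0.03 ± 0.05 and -0.05 ± 0.06. DESeq2 called none of 15 in the first list and 1 of 8 in the second, FN1, lower with KCNQ3. Of all genes with an adjusted p it called 4.41% higher and 5.49% lower. At an unadjusted p under 0.05 by edgeR's QL test, 9.92% of all genes were higher and 9.46% lower.

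All 19 basement membrane partners were tested, none was called, 1 was higher and 1 lower at an unadjusted p under 0.05, and the median was -0.07. The log2 fold change was above 0 for 4 of the 19, against 52.6% of all genes, and the groups overlapped in scaled CPM for every one. NID1, which bridges laminin and type IV collagen, was at 259 ± 16.4 CPM in controls and 245 ± 16.7 CPM with KCNQ3 (SD, n = 4), and LAMB2, a laminin chain, at 145 ± 11.9 and 135 ± 7.21 CPM. Of 11 collagen receptors 8 were tested, with none called, 2 higher and 2 lower at an unadjusted p under 0.05 and a median of -0.06. In scaled CPM the groups did not overlap for 3 of these 8, against 11.6% of all genes tested. ITGB1, the beta subunit of the collagen-binding integrins, had a log2 fold change of 0.00 ± 0.05 (SE), and MRC2, an uptake receptor for collagen fragments, -0.17 ± 0.07 (adjusted p = 0.211 by edgeR's QL test). DESeq2 called 1 of 6 receptors, the collagen-binding kinase DDR2, lower, and none of 15 basement membrane partners, against 5.49% lower of all genes. At an unadjusted p under 0.05 by edgeR's QL test, 9.92% of all genes were higher and 9.46% lower.

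Of 20 breakdown genes 13 were tested, with none called, 1 higher and 1 lower at an unadjusted p under 0.05 and a median of 0.08. Groups did not overlap in scaled CPM for 1 of these 13. TIMP1, an inhibitor of matrix metalloproteinases, was at 0.08 ± 0.05 and CTSL, a lysosomal protease, at 0.09 ± 0.05 on the log2 scale. In the list of TGF-beta and transcription genes, 20 of 21 were tested, none was called and the median was -0.04. At an unadjusted p under 0.05, 7 of the 20 were lower and none higher, against 9.46% lower and 9.92% higher of all genes. In scaled CPM the groups did not overlap for 4 of the 20, against 11.6% of all genes tested. LARP6, which binds type I collagen messages, was 1 of these 4. It had 2107, 1522, 1585 and 1386 counts in controls and 1222, 1179, 1424 and 1132 with KCNQ3. Its log2 fold change was -0.35 ± 0.07 and that of the transcription factor SP3 -0.17 ± 0.05 (SE), with adjusted p of 0.0658 and 0.112 by edgeR's QL test. Of the 16 with an adjusted p, DESeq2 called LARP6, SKIL, SP1 and SP3 lower, against 5.49% lower of all genes. In the breakdown list it called 1 of 10, PEPD, higher, against 4.41% higher of all genes.

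**Figure D5:**
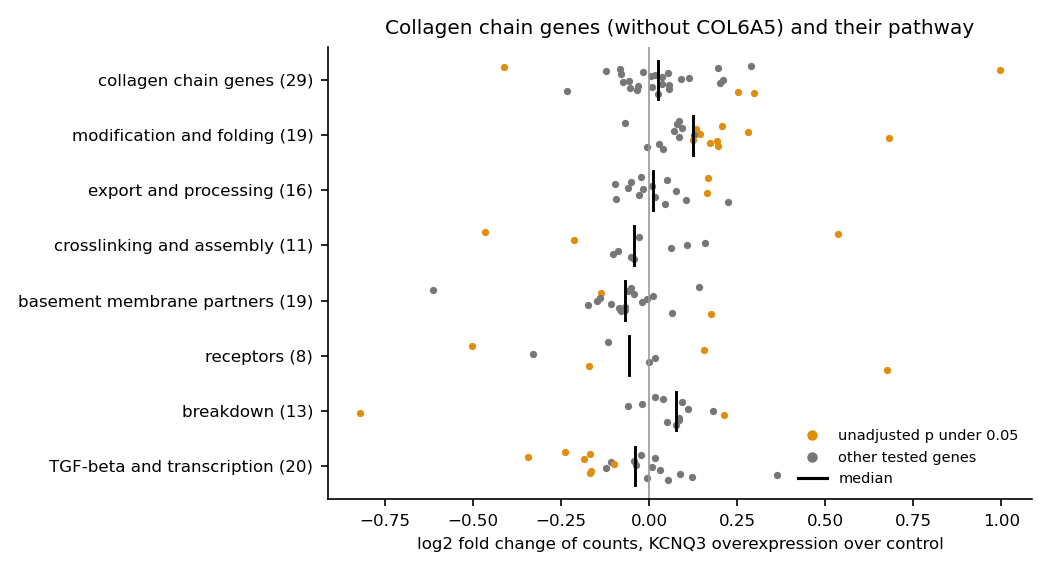
Log2 fold change of counts with KCNQ3 for the tested collagen genes with a count in every library and for the tested genes of 7 pathway lists, with the number tested in brackets, the median as a black line and genes at an unadjusted p under 0.05 in orange. The modification and folding genes lie mostly above 0, with a median of 0.12, and the collagen genes lie on both sides of it.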

How the data were processed

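The authors deposited, for 8 libraries, estimated counts per transcript and TPM per transcript. The deposited estimated counts are whole numbers, and the deposited TPM sum to 1000000 per library. StringTie 2.1.0, HISAT2 2.1.0, SAMtools 1.9, FastQC 0.11.5, cutadapt 2.8 and the build GRCh38.p13 are named, without their roles, per the submitters' processing notes. The sources used here do not give read length, strand or annotation release, and reads shared by overlapping genes or transcripts were divided by the authors' estimate, so genes on opposite strands may not be told apart.

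Transcripts were joined to GENCODE release 29 (GRCh38) by identifier. Of 227751, 205804 matched and held 98.7% to 98.9% of each library's counts. Counts were summed per gene and tested with edgeR 4.0.16's quasi-likelihood test (R 4.3.3, TMM scaling, filterByExpr with a minimum count of 10 and a minimum total of 15, robust estimation), 4 libraries against 4, with Benjamini-Hochberg adjustment over all genes and a threshold of 0.05. Standard errors are those implied by the test. CPM are counts scaled with TMM factors to 1000000 per library. Transcript usage was tested with diffSpliceDGE. DESeq2 1.42.0, limma 3.58.1, other scalings and filters, a replicate block and leaving out each library were alternatives. Using protein-coding transcripts only was chosen after seeing the data. The tests were tested on simulated data. No 2 libraries of a group were copies (chi-square per degree of freedom 9.72 to 18.6).

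Promoter sequences come from RefSeq (GRCh38.p14) and exon sequences from GENCODE. For 12 of the 44 genes no promoter window was used. The genes and lists were chosen with earlier results of these data known. Values in every library are given for collagen genes at 5 CPM or more in a group, an unadjusted p under 0.05 or groups that do not overlap. From each list the called genes, or the 2 most abundant where none was called, are named.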

Additional observations from a re-analysis of the deposited data

Results flagged for a closer look

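In the 60 groups of 4 libraries checked, that is each tested collagen gene in each condition, 2 had 1 library far from the other 3 by Dixon's test at the 95% level. Chance alone gives about 1 in 20 groups. COL9A3 stood at 5.13 CPM in overexpression replicate 2 and at 4.35 to 4.44 CPM in the other overexpression libraries. COL13A1 stood at 2.89 CPM in control replicate 1 and at 4.89 to 5.22 CPM in the other controls.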

How the results depend on the processing

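The count of called collagen genes was 1 with the other scalings, with no low-count filter and by limma-voom. It was 0 with a mean count of at least 50, without robust estimation, by DESeq2, by limma on log2(TPM + 1) or log2(TPM + 0.1), and with protein-coding transcripts only, where COL6A5 was not tested in the first and last of these and had no adjusted p from DESeq2. Leaving out each library gave 0 to 1. The count over all genes, 58, was 35 with no scaling factor (9 higher and 26 lower, against 21 and 37), 30 without robust estimation, 1352 by DESeq2, 7 on each TPM scale, 6 with protein-coding transcripts only, and 8 (without overexpression replicate 2) to 378 (without overexpression replicate 1) when each library was left out. The count over the pathway lists, 1, was 0 with no scaling factor or protein-coding transcripts only and 0 to 5 when each library was left out, with 5 without overexpression replicate 1 and 3 without control replicate 4. The transcript usage count of 0 became 1 without overexpression replicate 3, so its range was 0 to 1. The log2 ratio of summed collagen CPM, 0.01, stayed within the spread between libraries under every alternative run. The causes of these shifts were not tested.

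Same-numbered libraries did not deviate together (correlations of 0.01, -0.01, -0.05 and -0.02). Correlations between differently numbered libraries ran from -0.07 to 0.08. The sources used here do not say whether the numbers pair the samples, and these values cannot settle it, as a small shared effect could go unseen. With a replicate block the count was 0 for collagen genes, where the adjusted p of COL6A5 was 0.0508, 86 for all genes, 1 for the pathway lists, which was DDR2 in place of P3H3, and 0 for transcript usage.

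Of 44 single genes followed, 15 turned their sign under at least 1 alternative, 10 of them collagen genes, and 20 collagen genes kept theirs under all. With protein-coding transcripts only, P3H3 was at -0.30 and COL21A1 at -0.15. On log2(TPM + 1) they were -0.0049 for COL4A4, -0.042 for COL4A5, -0.043 for COL5A1, -0.00096 for COL21A1, -0.014 for COL24A1, -0.0063 for COL25A1, -0.0056 for COL26A1, -0.029 for SEC23A and KLHL12 and -0.051 for ITGB1. On log2(TPM + 0.1) they were -0.011 for COL4A4, -0.044 for COL4A5, -0.048 for COL5A1, -0.022 for COL24A1, -0.0064 for COL25A1, -0.0066 for COL26A1, -0.029 for SEC23A, -0.030 for KLHL12 and -0.052 for ITGB1. With no scaling factor they were -0.010 for COL5A1, -0.0025 for COL24A1, -0.015 for COL25A1, -0.0027 for SEC23A, -0.011 for KLHL12 and -0.018 for ITGB1. COL25A1 was at -0.00064 with RLE size factors, -0.0029 with no low-count filter and -0.0014 by DESeq2, and KLHL12 at -9.1e-05 with no low-count filter. ITGB1 was at -0.0046 with RLE size factors, -0.0067 with no low-count filter, -0.0012 with a mean count of at least 50, -0.00053 with the replicate block, -0.0045 by DESeq2 and -0.00052 by limma-voom. Leaving out each library gave -0.090 to 0.045 for COL1A1, -0.0098 to 0.079 for COL4A4, -0.061 to 0.0097 for COL4A6, -0.035 to 0.032 for COL5A1, -0.054 to 0.083 for COL9A3, -0.10 to 0.31 for COL21A1, -0.061 to 0.081 for COL24A1, -0.036 to 0.026 for COL25A1, -0.024 to 0.098 for COL26A1, -0.0070 to 0.030 for SEC23A, -0.027 to 0.028 for KLHL12, -0.071 to 0.0049 for FBLN1 and -0.039 to 0.023 for ITGB1. The 11 collagen genes with counts that the filter left out were tested with no low-count filter, where none of them was called.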

Other observations

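COL6A2 counts were spread over more protein-coding transcripts than those of COL6A1. ENST00000300527 held 76.7% of COL6A2 counts over all libraries, and ENST00000397763 had 859, 184, 503 and 643 counts in controls and 196, 778, 319 and 543 with KCNQ3, ranges that overlap. In COL6A1 the single transcript ENST00000361866 held 98.4%. COL19A1, a fibril-associated collagen gene with 38 to 62 counts per library, had 95.3% of its counts in a transcript that overlaps exons of LMBRD1. COL4A1 had a retained-intron transcript, ENST00000649738, with 103, 62, 77 and 156 counts in controls and 0, 70, 0 and 117 with KCNQ3.

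The summed level of the chondrocyte list was 8.95 to 10.7 TPM in controls and 7.98 to 11.1 TPM with KCNQ3. The fibroblast list shares FBLN1 with the crosslinking list. The endothelial list summed to 1.02 to 1.21 and 0.714 to 1.29 TPM, the blood list to 1.51 to 2.77 and 1.67 to 2.61 TPM, and the HEK293T list to 745 to 955 and 714 to 829 TPM. None of these genes was called by edgeR's quasi-likelihood test. At an unadjusted p under 0.05 the HEK293T list had 1 gene higher and 4 lower of 10 tested, and the chondrocyte list 1 lower of 5. Of all genes tested, 9.92% were higher and 9.46% lower.

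CG steps and GC boxes were counted in the 250 bases before each RefSeq start. The 17 windows of collagen genes with a mean of at least 1 TPM held a median of 22 CG steps. The median was 10 for the 14 windows of tested genes under 1 TPM and 10 for the 13 of genes not tested. Over all 35116 windows it was 11. A GC box was in 70.6%, 42.9% and 46.2% of the 3 sets. No window was matched for COL6A1, COL2A1, COL9A3, COL1A1 and COL14A1, which also had a mean of at least 1 TPM. More than 1 window each came from COL4A6, COL5A1 and COL18A1 among genes of at least 1 TPM. So it was for COL24A1, COL11A2 and COL21A1 among tested genes under 1 TPM, and for COL10A1 and COL9A1 among genes not tested. Each set thus held fewer genes than windows. Windows of 1 gene can overlap, as do those of COL4A1 and COL4A2, and these are descriptions without a test.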
